A study of Dugesia japonica with 157 samples.

Results

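The genes described here are the 150 transcripts of the planarian Dugesia japonica that stood highest in the tail end of a worm cut from head to tail, followed onto the other 2 body axes. They were chosen by their measured values on the anterior-posterior axis. In each section the estimated counts were divided by the section's total and scaled to a library of 1000000 counts (CPM), and log2(CPM + 1) was taken. A gene's lead is its mean log2 level in sections 66 to 78 minus its mean level in all other kept sections. Of the 25566 rows of the table, 13598 genes passed a filter on low counts (a minimum of 5 counts in 10% of the sections kept), 301 of these had their largest lead in the tail zone with a value of at least 1, and the top 150 by lead are the members. All 150 passed the same filter on low counts on the dorsal-ventral axis, and 147 passed it on the right-left axis.

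The study cut whole animals of strain AF, with no treatment labelled, into serial sections along 3 axes, an approach known as Tomo-Seq, and sequenced the polyadenylated RNA of each section. The head-to-tail axis gave 78 sections, the dorsal-ventral axis 28 and the right-left axis 51. No replicate animals were labelled, so sections stand in for replicates and every p-value measures the spread between sections, not between animals. Each axis was read in parts by section number: dorsal (1 to 9), middle (10 to 18) and ventral (19 to 28), and right (1 to 17), middle (18 to 34) and left (35 to 51).

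Planarians rebuild any missing body region from a small fragment, and the tail is the region where posterior identity is kept by Wnt signalling, with position control genes expressed in the body-wall muscle. The tail holds the ends of the gut branches and of the ventral nerve cords, excretory tubules, muscle and epidermis, and lacks the eyes, brain and pharynx. No gene names stand beside the deposited identifiers, so no member can be given a role here, and no known tail gene could be looked up. The name tail gene rests on section order alone.

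Sections differed greatly in depth, and this has to be read before the members. Among the sections kept, which had at least 20% of the median total of their axis, totals ran from 175749 to 12945391 estimated counts on the anterior-posterior axis (74 of 78 sections), from 623214 to 26807303 on the dorsal-ventral axis (21 of 28) and from 236421 to 13052596 on the right-left axis (37 of 51). The 11 kept tail sections were shallow, with totals from 175749 to 893718 and a median of 280209, against medians of 1001557, 758136, 1684960 and 2179857 in zones 1 to 7, 8 to 26, 27 to 52 and 53 to 65. All 11 had fewer than 1000000 counts, as did 28 of the 63 other kept sections. When every section was thinned to 175749 counts, the tail sections held between 3088 and 5678 detected genes with a median of 4300, while the medians of the other zones lay between 6814.5 and 8081.

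On the axis that chose them, the members' leads ran from 1.49 to 3.81 on the log2 scale, with a median of 1.79. At the limit, DjGI000130_001 at rank 150 had a lead of 1.493 and DjGI019022_001, the next gene down, had 1.492, so the end of the list is not a natural break. The members' mean log2 level was 5.44 ± 1.18 (SD, n = 11 sections) in the tail zone. It was 3.44 ± 0.59 (n = 5), 3.68 ± 1.15 (n = 19), 3.71 ± 1.20 (n = 26) and 3.19 ± 0.99 (n = 13) in the zones in front of it, in order. These values describe how the genes were selected and carry no test. In a tissue section, fewer cells of a type and less RNA per cell cannot be told apart.

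The high tail mean was uneven. Within the tail, the members' mean log2 level was 7.70 in section 78 and 6.37 in section 75, the hindmost kept sections, where their counts made up 10.9% and 10.2% of the totals. It was only 3.69 in section 68 and 3.57 in section 73, which had the largest totals of the tail, 787073 and 893718. Of the 63 sections outside the tail, 29 lay above section 73. Sections 25 and 40, in the front and middle of the body, reached 6.93 and 6.48, with 6.41% and 4.46% of their counts, at totals of 719691 and 825916 that are close to those of sections 68 and 73. The single-section peak of a member fell in the tail for 100 of 150 genes, in section 78 for 53 and in section 75 for 13, but in section 25 for 25 and in section 40 for 7.

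**Figure D1:**
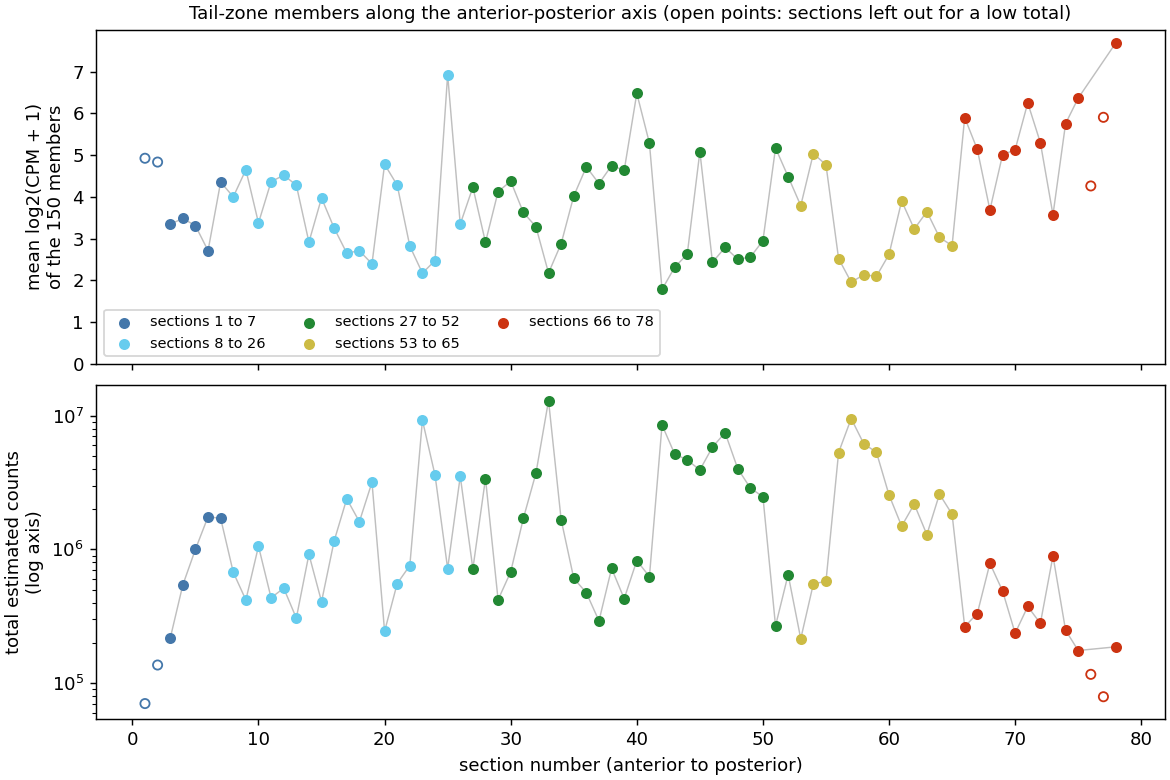
Mean log2(CPM + 1) of the 150 members (top) and total estimated counts on a log axis (bottom) in each section from anterior to posterior, coloured by zone, with open points for the 4 sections left out for a low total. The members are high in most tail sections and in sections 25 and 40, and low in tail sections 68 and 73, although sections 25, 40, 68 and 73 have similar totals, from 719691 to 893718. A kept section of the foremost zone, with 216691 counts, is low at 3.34, and section 45, with 3922734, is at 5.08. Sections of the foremost zone are drawn in the order of the numbers in their column names, which is not certain.

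The gene with the largest lead, DjGI014920_001 (lead 3.81), was detected in all 11 tail sections, at 226, 36.1, 50.8, 55.1, 122 and 13.3 CPM in sections 66 to 71, 164, 24.6, 80.3 and 387 CPM in sections 72 to 75, and 117 CPM in section 78. It thus varied widely within the tail, and these CPM values rest on 351 counts in all. Its mean over zones 1 to 7, 8 to 26, 27 to 52 and 53 to 65 was 3.42, 23.9, 35.4 and 11.3 CPM. DjGI000005_007 (lead 2.94) reached 876 CPM in section 66 and 0 CPM in section 68, with a tail median of 45.2 CPM.

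The most abundant member in the tail, by CPM not corrected for transcript length, was DjGI017744_001 with a mean of 5784 ± 12883 CPM (SD, n = 11). Sections 75 and 78 gave 42418 and 14930 CPM and the other 9 lay between 181 and 1162 CPM, so section 75 alone held 49.4% of the gene's CPM summed over all kept sections. DjGI012294_001, next in abundance, averaged 1250 ± 974 CPM in the tail (n = 11), and its highest section of the whole axis was section 25. In the other zones it averaged between 364 and 665 CPM. Taken over the list, the share of a member's summed CPM found in its peak section had a median of 12.4% and ranged from 5.69% to 83.4%, and in 8 members a single section held most of it.

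Rows sharing the first part of their identifier were common among the members. Identifiers consist of a first part and a suffix, and 79 of the 150 members (52.7%) belonged to a first part with several rows in the table, against 4759 of the 13598 genes passing the filter (35.0%). The 150 members came from 119 first parts, of which 20 supplied several members, up to 5 each, for 51 members in all. What the suffix stands for is not given, and no sequences were at hand. Whether rows with the same first part share reads was not tested, so the members may not be 150 independent genes.

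The members' level fell as the total of the section rose. On the anterior-posterior axis this is part of how the members were chosen, since the tail zone was the shallowest. Across its 74 kept sections, the members' mean log2 level correlated with log2 total at r = -0.774 (Spearman's rho -0.814). On the axes the choice did not use it was r = -0.904 (rho -0.904, n = 21 sections) from dorsal to ventral and r = -0.895 (rho -0.933, n = 37) from right to left. Without the 2 sections farthest from the median total, r was -0.760, -0.879 and -0.910. With all sections of an axis thinned to an equal number of counts it was -0.803, -0.908 and -0.911. The sections of an axis share an animal series and the total enters both measures, so these values are a description with no p.

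The members' own counts spanned a narrower range than the totals. On the anterior-posterior axis the totals spanned 73.7-fold and the summed member counts 17.1-fold, from 2928 to 50121. On the dorsal-ventral axis the totals spanned 43.0-fold, from 623214 to 26807303, and the summed member counts spanned 4.95-fold, from 26174 to 129488. On the right-left axis the totals spanned 55.2-fold and the member counts 8.57-fold, from 1510 to 12934. A slope of 1 for log2 member counts on log2 total would mean a fixed share of the library. The slope was 0.101 on the anterior-posterior axis, 0.153 on the dorsal-ventral axis and 0.312 on the right-left axis. Libraries of this kind are pooled early, and whether some of the member counts in shallow sections came from other libraries was not tested, which limits what a high CPM there means.

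The same sign was seen gene by gene on the axes the choice did not use. The correlation of log2 level with log2 total was below 0 for 146 of 150 members (97.3%) on the dorsal-ventral axis and 141 (94%) on the right-left axis. Among all genes passing the filter the shares below 0 were 36.3% and 11.6%. The median r of a member was -0.88 and -0.43 on these axes, and that of all genes was 0.17 and 0.35. On the anterior-posterior axis 147 members had r below 0, with a median of -0.50, from the same values that chose them.

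**Figure D2:**
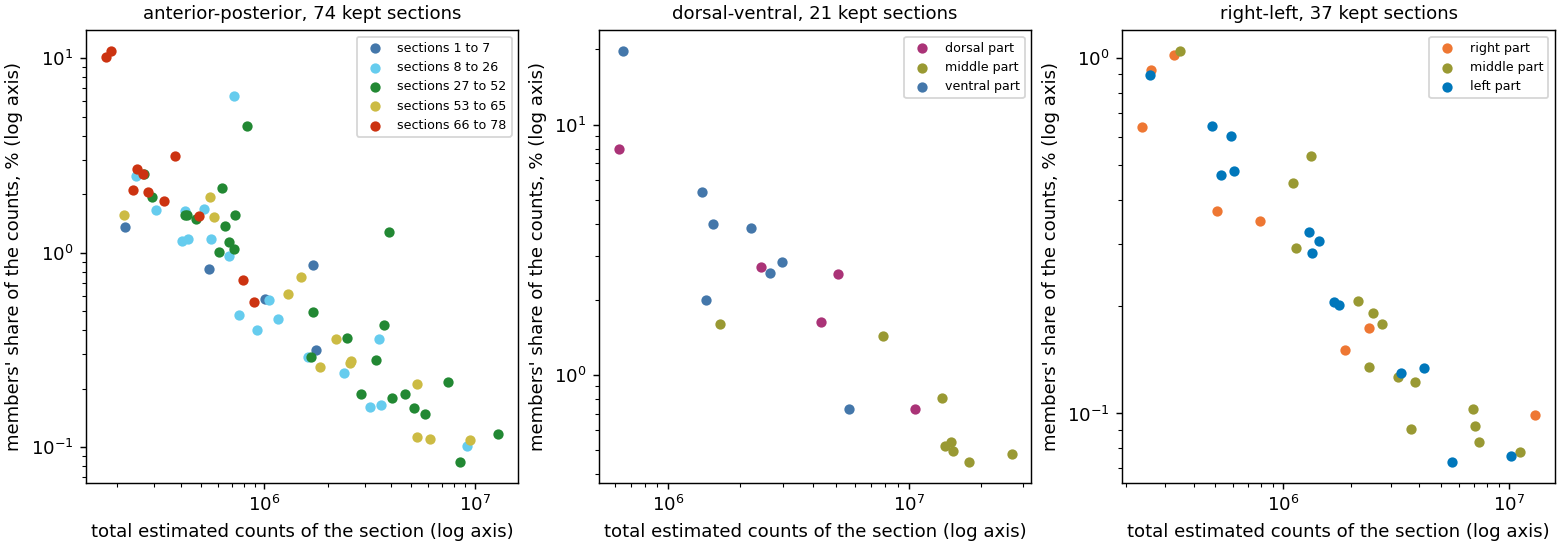
Share of a section's estimated counts that came from the 150 members against the section's total, both on log axes, 1 panel per axis and 1 point per kept section, coloured by zone or part. The share falls as the total rises on every axis. Tail and ventral sections lie mostly at the left, with median totals of 280209 and 1874284. Dorsal sections are spread, from 623214 to 10603361. Side sections are spread too, and right section 16 has the largest right-left total, 13052596.

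Among the kept dorsal-ventral sections, the members' median level was lower in the middle part than in the dorsal and ventral parts. Middle section 18, left out for its low total, stood at 8.58. The members' mean log2 level in the 5 kept dorsal sections, 4, 5, 7, 8 and 9, was 7.50, 5.99, 6.02, 5.44 and 4.34. In the 8 middle sections it had a lowest, median and highest value of 3.80, 4.07 and 5.33, and in the 8 ventral sections of 4.39, 6.24 and 8.80. The ranges of the middle and the ends overlapped, because dorsal section 9 and ventral section 23 were low and middle sections 10 and 14 were high. Ventral section 26 was the peak of 138 of the 150 members and dorsal section 4 that of 6. In section 26 the members made up 19.7% of all counts.

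The middle part was tested against the mean of the dorsal and ventral parts with edgeR's quasi-likelihood test, fitted over all 18291 genes and called at a Benjamini-Hochberg adjusted p under 0.05. Of the 150 members, 114 (76.0%) were called lower in the middle, that is higher at the ends, where 4.41% of all genes were called. One member was called higher in the middle, where 4.69% of all genes were. The 114 log2 fold changes ran from -1.04 to -2.83. Over all 150 members the median was -1.78, and over all genes tested it was 0.12. For 148 of 150 members both end parts had a higher mean than the middle, yet in none were the middle sections free of overlap with the end sections.

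Depth moved with this result. The median totals of the dorsal, middle and ventral parts were 4323922, 14600694 and 1874284 counts. With log2 section total as a term in the model, no member was called in either direction, while the shares of all genes called were 0.836% for the middle and 0.213% for the ends. The members' median log2 fold change was then -0.12. At an unadjusted p under 0.05 edgeR gave 2 members for the middle and 0 for the ends, and 783 and 1112 of 18291 genes. Without sections 4 and 26, the kept sections with the smallest totals, 88 members (58.7%) were called higher at the ends against 4.2% of all genes, and 1 higher in the middle against 5.68%. Without section 15, 75 members and 1046 of 18925 genes were called in all, against 115 and 1664 of 18291 with every kept section. The parts of the axis differ in both position and depth, whose shares in this result cannot be told apart.

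The total and the members' level of single sections can be set side by side. These sections were picked after their values were seen. Ventral section 23, with 5636890 counts, had a member level of 4.39 and a share of 0.732%. Its neighbours 22 and 24 had 7.02 and 5.42, with shares of 5.39% and 1.99%, although their totals were nearly equal at 1377910 and 1442388 counts. Section 24 lay below the ventral medians of both total and member level. Middle section 10, with 1643662 counts, stood at 5.33, above section 9 at 4.34 with 10603361 counts, although section 9 is the one nearer the back. The members made up 18.9% of the counts in interior section 18 (295459 counts) and 20.8% in section 6 (402918 counts), both left out of the tests for their low totals. The neighbours of section 6, sections 5 and 7, gave 2.71% and 2.52%. In all 7 sections left out, of which sections 1, 2, 3, 27 and 28 lie at the surfaces, the share was between 13.1% and 20.8%. When all 28 sections entered the fit, 4 members were called lower in the middle, as were 129 of 18510 genes. The members' median log2 fold change was then -1.36, with 144 of 150 below 0, and 115 were lower in the middle at an unadjusted p under 0.05.

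**Figure D3:**
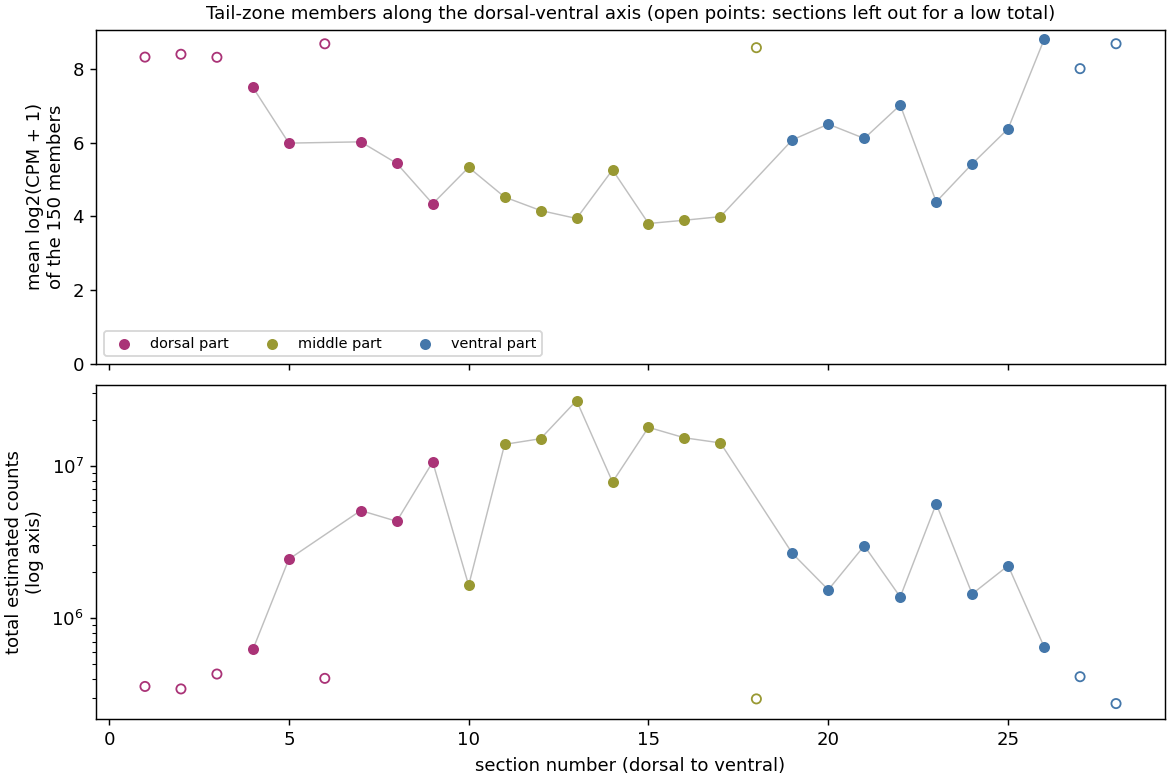
Mean log2(CPM + 1) of the 150 members (top) and total estimated counts on a log axis (bottom) in each section from dorsal to ventral, coloured by part, with open points for the 7 sections left out for a low total. The members are lowest in the deep middle sections and low in ventral section 23, and high in sections 4 and 26 and in all 7 left-out sections, 5 at the surfaces (1, 2, 3, 27 and 28) and 2 between kept sections (6 in the dorsal part and 18 in the middle part).

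DjGI015093_001 had the largest fall in the middle among the called members (by the rule for named genes). It had 178, 23.8, 52.7, 28.7 and 4.90 CPM in the 5 dorsal sections, a lowest, median and highest value of 4.03, 8.27 and 21.3 CPM in the 8 middle sections, and of 10.5, 49.1 and 1432 CPM in the 8 ventral ones. Ventral section 26 stood far above the rest, and the dorsal and middle ranges overlapped. Its log2 fold change was -2.83 ± 0.70 (SE, edgeR adjusted p = 0.0107), and with section total in the model 0.36 ± 0.71 (adjusted p = 0.970).

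DjGI017072_001 averaged 126 CPM in the tail but 174 CPM in zone 8 to 26, where section 20 reached 2496 CPM. On the dorsal-ventral axis it had 380, 89.8, 204, 72.9 and 16.0 CPM dorsally, 15.1, 28.3 and 47.1 CPM as lowest, median and highest in the middle, and 31.0, 115 and 2275 CPM ventrally. Dorsal section 9 lay within the range of the middle. The log2 fold change was -2.53 ± 0.58 (SE, edgeR adjusted p = 0.00676), and -0.55 ± 0.71 (adjusted p = 0.918) with section total in the model.

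The members most abundant on this axis, by CPM not corrected for length, were DjGI012294_001 and DjGI008141_001. DjGI012294_001 had 5420, 2064, 1362, 936 and 557 CPM in the dorsal sections, from the back inward. Its lowest, median and highest values were 260, 329 and 1319 CPM in the middle and 514, 2145 and 11920 CPM ventrally. Its log2 fold change in the middle was -1.76 ± 0.44 (SE, edgeR adjusted p = 0.0121), and -0.13 ± 0.37 (adjusted p = 0.983) with section total in the model. In summed counts it gave 25289 in 5 dorsal, 41666 in 8 middle and 36481 in 8 ventral sections. DjGI008141_001 had a similar course, from 5630 CPM in section 4 to 491 CPM in section 9, with a middle median of 372 CPM and 10106 CPM in section 26.

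The members that led the choice took the same course. DjGI014920_001 had 281, 56.6, 40.3, 37.7 and 14.2 CPM dorsally, a median of 13.7 CPM (7.83 to 30.1) in the middle and 68.7 CPM (13.7 to 679) ventrally, with a log2 fold change of -2.23 ± 0.51 (SE, edgeR adjusted p = 0.00665). DjGI000005_007 gave -2.07 ± 0.46 (adjusted p = 0.00558). Neither was called with section total in the model (adjusted p = 0.994 and 0.814). DjGI019022_001, just outside the list, went the other way at 0.79 ± 0.42 and was not called (adjusted p = 0.278).

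The only member called higher in the middle was DjGI018507_001. It had 25.7, 0.41, 0, 5.32 and 5.00 CPM in the dorsal sections, 9.70, 19.9 and 27.0 CPM as lowest, median and highest in the middle, and 0, 5.42 and 24.4 CPM in the ventral part. Sections 4 and 21 were as high as the middle. Its log2 fold change was 1.85 ± 0.59 (SE, edgeR adjusted p = 0.0453), and 2.04 ± 0.85 (adjusted p = 0.355) with section total in the model. The call was lost in 22 of 34 alternatives, while the fold change stayed between 1.42 and 2.65. Its level rose with section total on the anterior-posterior axis (r = 0.30, n = 74), unlike 147 other members.

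No member was called between the dorsal and the ventral part with edgeR, where 0.492% of all genes were called higher dorsally and 0.306% higher ventrally. At an unadjusted p under 0.05 the counts were 0 and 5 of 150 members, and 1281 and 1024 of 18291 genes. DESeq2 called 1 member and 270 of 18291 genes higher ventrally, and limma-trend 0 members and 37 genes. The members' median log2 fold change was -0.68, with 140 of 150 below 0, and that of all genes was 0.01. With section total in the model the median was -0.03, and 84 of 150 were below 0.

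**Figure D4:**
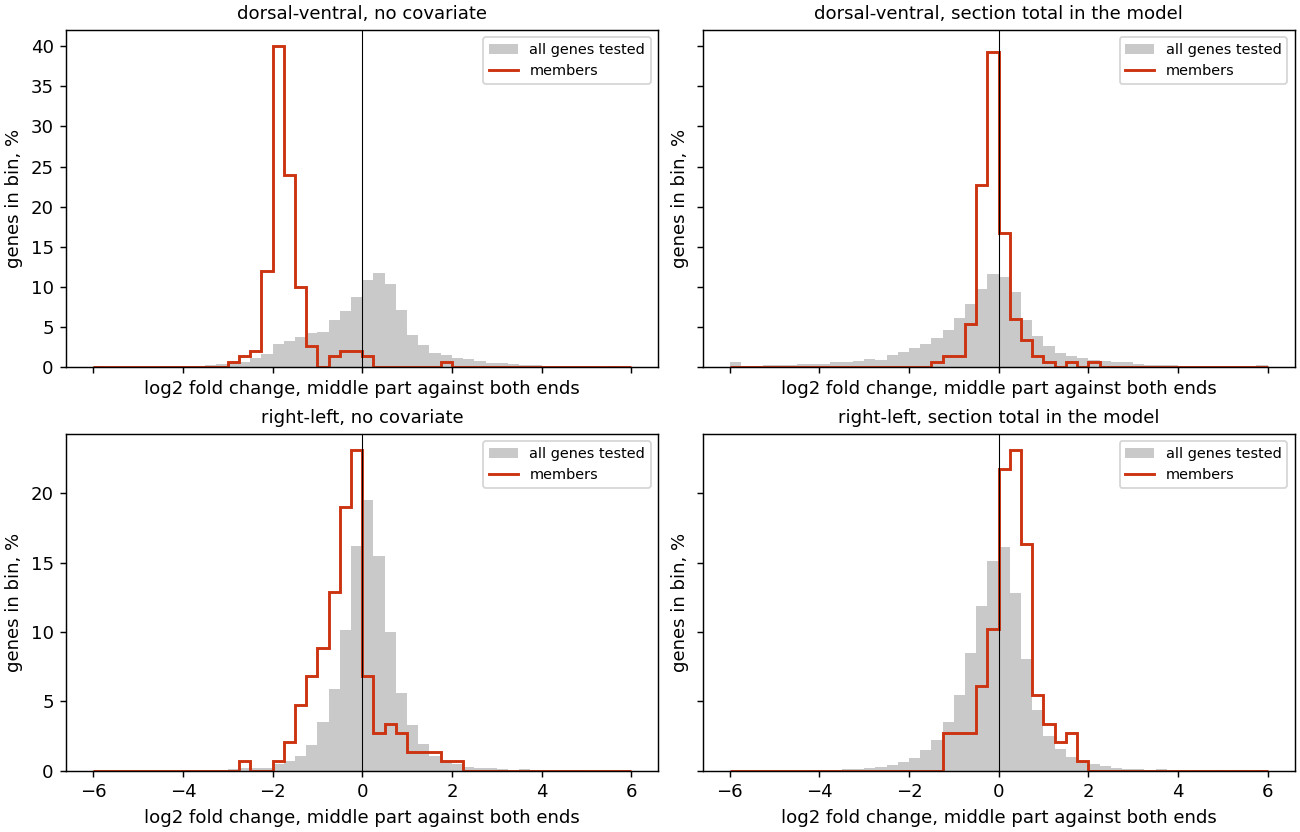
Log2 fold changes of the middle part against both ends for the dorsal-ventral (top) and right-left (bottom) axes, without a covariate (left) and with log2 section total in the model (right), as percent of genes per bin, in grey for all genes tested and in red for the members, with values beyond 6 put in the end bins. Members centre on -1.78 and -0.38 without the covariate and on -0.12 and 0.27 with it.

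From right to left the members' placement was weaker. Their mean log2 level had a lowest, median and highest value of 2.15, 3.02 and 4.14 in the 8 kept right sections, 1.80, 2.24 and 4.54 in the 15 middle sections and 1.79, 2.88 and 3.80 in the 14 left sections. The ranges of the 3 parts overlapped over most of their length, and the highest kept section was section 26, at the centre of the animal, where the total was only 347444 counts. Section 26 was the peak of 38 members, and sections 8, 6, 10 and 48 near the sides were the peaks of 29, 24, 15 and 15. The members' share of the counts was 1.05% in section 26, 0.924% and 1.02% in right sections 6 and 8, and 0.898% in left section 48. Of the 14 sections left out, sections 17 and 25, with 20338 and 19222 counts, had low mean log2 levels of 0.63 and 1.87. Only 13 and 37 members were detected there, on 52 and 201 member counts, so these levels rest mostly on members without counts. By share of the counts, section 17 was low at 0.256%, while section 25 was at 1.05%, as high as section 26. The median share of the 14 sections left out was 2.17%.

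Of the 147 members tested, 1 was called higher in the middle, where 0.778% of all 16463 genes were called, and 1 higher at the sides, where 0.213% were. At an unadjusted p under 0.05 these counts were 6 and 10 of 147 members, and 1293 and 392 of 16463 genes. The members' median log2 fold change in the middle was -0.38 and that of all genes 0.12. With section total in the model the members' median was 0.27, 1 member was called higher in the middle (0.632% of all genes) and none at the sides (0.249%). At an unadjusted p under 0.05 edgeR then gave 12 members and 1138 of 16463 genes in the middle, and 2 members and 749 genes at the sides.

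No member was called between right and left with edgeR, where 0.0425% of all genes were called higher on the right and 0.0% on the left. Without adjustment, 24 members were higher on the right and 2 on the left at a p under 0.05, as were 616 and 709 of all 16463 genes. DESeq2 and limma-trend each called 0 members, and 15 and 17 genes in either direction. The members' median log2 fold change, right minus left, was 0.74, against -0.13 for all genes. The median total was 646464 counts on the right, 2731445 in the middle and 1390179 on the left. Without the 8 kept sections under 50% of the median total, 4 of them on the right, the members' median was -0.13.

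**Figure D5:**
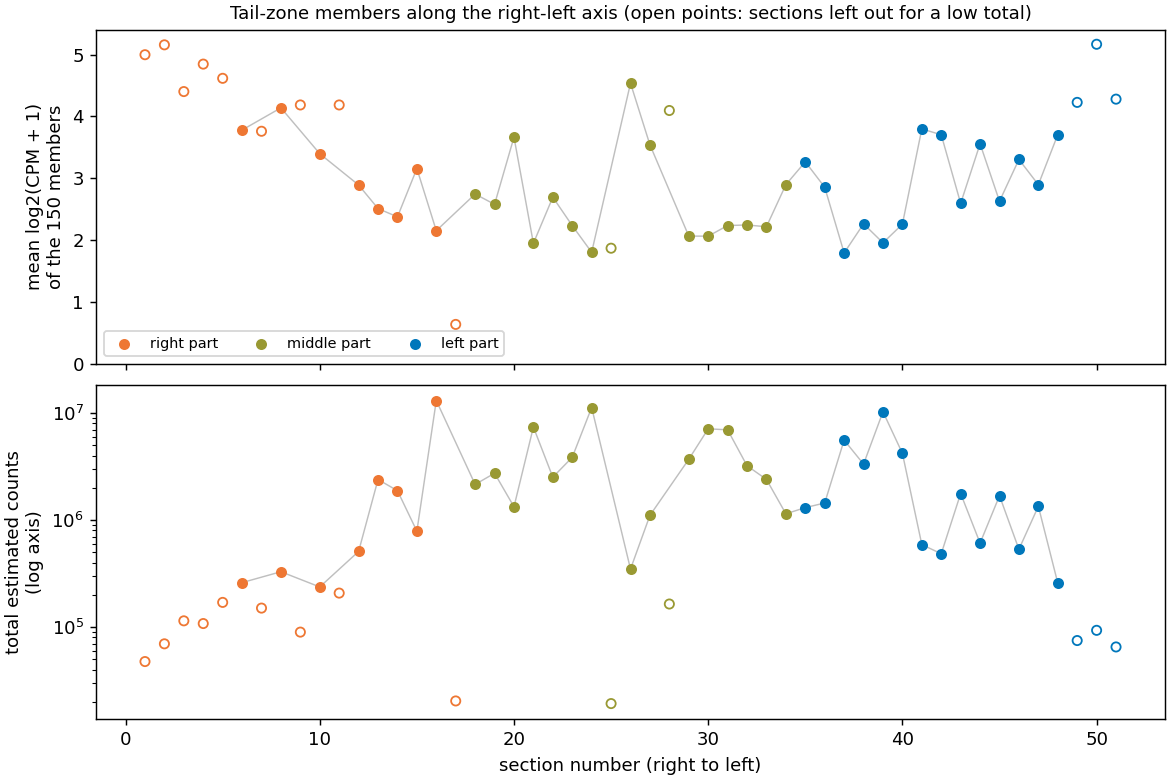
Mean log2(CPM + 1) of the 150 members (top) and total estimated counts on a log axis (bottom) in each section from right to left, coloured by part, with open points for the 14 sections left out for a low total. The members are high in side sections of low total and in central section 26, where the total is low too. Deep side sections 16 and 39 are low at 2.15 and 1.95, and middle sections 20 and 27 stand at 3.66 and 3.54. The left-out sections 17 and 25, with the smallest totals of all, are low in both panels.

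On the anterior-posterior axis, the level of both members called here had little relation to depth (r = 0.032 and -0.069, n = 74). That does not describe depth on the right-left axis, where the 2 members differed in direction. DjGI008962_001 was detected in only 5 of the 11 kept tail sections, with a tail median of 0 and a mean of 28.8 CPM. From right to left it had a lowest, median and highest value of 0, 14.3 and 53.9 CPM on the right, 4.67, 45.4 and 138 CPM in the middle and 0, 12.9 and 61.4 CPM on the left. Its highest section was section 26, and the ranges overlapped. The log2 fold change was 1.65 ± 0.43 (SE, edgeR adjusted p = 0.0434), and 1.63 ± 0.43 (adjusted p = 0.0498) with section total in the model. The call was lost in 28 of 50 alternatives, while the fold change stayed between 1.25 and 2.29.

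DjGI012702_001 was higher at the sides. It had 6.21, 32.5 and 154 CPM on the right, 5.76, 14.7 and 30.8 CPM in the middle and 14.7, 56.0 and 167 CPM on the left. Its highest side values were in sections 6 and 48, with totals of 259627 and 257383 counts against a median of 1764899 on the axis. The log2 fold change was -1.47 ± 0.31 (SE, edgeR adjusted p = 0.00635). It was -0.75 ± 0.28 (adjusted p = 0.220) with section total in the model.

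The most abundant members on this axis, by CPM not corrected for length, were not called. DjGI017744_001 had 40.0, 194 and 1082 CPM on the right, 28.2, 62.7 and 363 CPM in the middle and 27.1, 113 and 583 CPM on the left, with a log2 fold change in the middle of -0.82 ± 0.40 (SE, edgeR adjusted p = 0.471). DjGI012294_001 had medians of 144, 80.1 and 222 CPM on the right, in the middle and on the left, and a log2 fold change of -0.16 ± 0.40 (adjusted p = 0.971).

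The members were also grouped by their relation to depth in the series that chose them. Of 119 members with r under -0.3 between level and total on the anterior-posterior axis, 103 were called higher at the dorsal-ventral ends, with a median log2 fold change of -1.79. Of 28 members with r from -0.3 to 0, 11 were called, with a median of -1.63. Of the 3 members with r of 0 or more, none was called at the ends, and their median was 0.22. Of all genes tested, 4.41% were called at the ends. The share among all genes of each class of r was not computed, so these counts cannot be taken as particular to the members. Between the axes, 115 of the 147 members had a log2 fold change below 0 for the middle on both. Singly, 147 of 150 were below 0 on the dorsal-ventral axis and 116 of 147 on the right-left axis, so this overlap was nearly fixed. Of the 112 tested members called at the dorsal-ventral ends, 95 were below 0 for the right-left middle. Among all genes, 8200 of 18291 and 6694 of 16463 were below 0 on the 2 axes. The difference between the classes of r was not tested.

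The list of tail genes changed with the rule and the sections used to choose it. Thinning every section to an equal number of counts before the choice gave a list sharing 122 of 150 members, TMM scaling one sharing 145, and leaving out section 78 one sharing 126. Choosing on sections with fewer than 1000000 counts alone gave 52 shared members, and removing each gene's linear trend in log2 total first gave 37. The part of depth in these changes was not tested apart from that of the sections that entered. Requiring 50% of the median total, which leaves 3 tail sections, 68, 69 and 73, gave 20. Only 6 of the 150 members were chosen in the main list and in all 6 of these alternatives.

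Genes chosen in the same way for other zones did not all follow depth in this manner. The 150 genes with the largest lead in sections 53 to 65, a zone with a median total of 2179857 counts, had a mean level that correlated with log2 total at r = 0.84, 0.90 and 0.91 on the 3 axes, and 41 of them were called in the dorsal-ventral middle and 1 at the ends. The 150 genes of sections 1 to 7 gave r = 0.41, -0.23 and 0.57, and 30 of them were called higher at the dorsal-ventral ends. Of all genes tested, 4.69% were called in the middle and 4.41% at the ends. With section total in the model, 19 genes of sections 53 to 65 were called in the middle and 9 of sections 1 to 7 at the ends. Of all genes, 0.836% were then called in the middle and 0.213% at the ends. The 0 calls among 150 tail members lie near these shares. The differences between these lists were not tested.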

How the data were processed

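The authors' tables, 1 per axis with 25566 rows each, hold estimated counts as deposited. The submitters' processing notes name Salmon (no version), BWA 0.7.17-r1188, fastp 0.21.0 and bcl2fastq 2.20.0; their roles and the reference were not given in the sources used here. The labels' protocols name Direct-TRI for RNA extraction and Lasy-Seq, which pools many small libraries early. Of 4013862 deposited values, 1028 (0.0256%) were not whole, and all were rounded before the tests. The labels give section order and no batch. The names of 7 anterior-posterior columns match several sections once punctuation is ignored, so they were used as belonging to zone 1 to 7 (read by their suffix, sections 1 to 7), and no comparison rests on their order.

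The members and lists were chosen with earlier results of these data known. Sections under 20% of the median total of their axis were left out. Counts were tested with edgeR 4.0.16 (R 4.3.3, TMM factors, quasi-likelihood F-test, Benjamini-Hochberg over all genes of the axis). On each axis 2 tests were made, 1 between the end parts and 1 of the middle part against both ends averaged, and the members were read from the whole table. Standard errors were read from the F statistic. Alternatives used DESeq2 1.42.0, limma 3.58.1, other filters and scalings, log2 section total as a covariate, 5 parts, thinned counts, odd or even sections alone, each section left out and other rules for the members. The fit was tested on simulated data. Apart from set changes in the middle part, each simulated gene kept the same expected share at every section total. That test therefore could not show whether depth gives calls.

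Named genes are the 2 with the largest lead, those at ranks 150 and 151, the 2 with the highest mean CPM in the tail and on each other axis, and per test and direction the 2 called members with the largest log2 fold change, a mean level of 10 CPM or more in the higher part and the same sign in odd and even sections. The marker lists planned for cell types could not be matched without gene names.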

Additional observations from a re-analysis of the deposited data

Results flagged for a closer look

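Among 47 groups of 4 to 10 sections checked for a section far from the others, 17 were marked. Chance marks about 1 in 20 independent groups, but these groups share sections, so the 17 cannot be set against that rate. Of the 17 marked, 14 were in 2 dorsal-ventral sections of low total. In dorsal section 4, far above the other 4 kept dorsal sections, were the members' share of the counts (7.958%, next 2.709%), DjGI014920_001 (280.8 CPM), DjGI015093_001 (178.1 CPM), DjGI008141_001 (5630 CPM) and DjGI018507_001 (25.67 CPM). In ventral section 26, far above the other 7, were the members' share (19.73%, next 5.387%), DjGI014920_001 (678.8 CPM), DjGI000005_007 (297.7 CPM), DjGI000130_001 (1072 CPM), DjGI017744_001 (7359 CPM), DjGI012294_001 (11920 CPM), DjGI015093_001 (1432 CPM), DjGI017072_001 (2275 CPM) and DjGI008141_001 (10110 CPM). These sections had 623214 and 648215 counts, the smallest totals kept on the axis. Elsewhere, DjGI018507_001 stood apart in ventral section 21 (24.42 CPM, next 11.27), DjGI017744_001 in right section 8 (1082 CPM, next 377.5) and DjGI008962_001 in right section 6 (53.92 CPM, next 21.83).

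Sections left out for a low total also held the members. Their median share of the counts was 4.042% in the 4 such anterior-posterior sections, 17.2% in the 7 dorsal-ventral ones and 2.167% in the 14 right-left ones. The part that depth plays in these values was not tested.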

How the results depend on the processing

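The 114 and 1 calls of the dorsal-ventral middle came to 4 in all when all sections entered. They came to 10 in odd and 2 in even sections alone. The members' median log2 fold change in these fits was -1.36, -1.66 and -1.89 against -1.78. With section total in the model there were 0 calls and the median was -0.12. In these fits, in order, 767 of 18510, 353 of 18405, 190 of 18699 and 192 of 18291 genes were called. The main fit called 1664 of 18291 genes. With members chosen by other rules, the member calls came to 27 (linear trend in log2 total removed), 44 (sections under 1000000 counts) and 24 (50% of the median total). The first 2 of these rules were added after seeing the data. Leaving out each section gave 75 to 129. For dorsal against ventral the count was 1 with DESeq2, which called 545 of 18291 genes. With other members it was 2 (trend removed), 1 (under 1000000) and 2 (50%), and leaving out each section gave 0 to 0. For right against left it was 1 with all sections, where 47 of 15505 genes were called, and 0 to 0 without each section. For the right-left middle, with 2 calls, it was 11 of 146 members with 5 parts, where 1362 of 16643 genes were called. With all sections it was 6 of 142 members and 249 of 15505 genes, against 163 of 16463 genes in the main fit. The member count was 1 with RLE factors, a filter on 25% of sections, limma, section total in the model, trend-free members, members under 1000000 and TMM-chosen members. It was 4 with members chosen at 50%, 0 with sections at 50%, odd, even or thinned-count members, and 1 to 3 without each section.

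The members' median log2 fold change changed sign for dorsal against ventral with all sections (0.12), for the dorsal-ventral middle with trend-free members (0.29) and members chosen at 50% (0.20), and for right against left with those members (-0.0095 and -0.27) and with sections at 50% (-0.13). For the right-left middle it changed sign with trend-free members (0.0068), members under 1000000 (0.0087), members chosen at 50% (0.13), sections at 50% (0.040) and section total in the model (0.27). DjGI015093_001 gave 0.36 with section total in the model. The cause was not tested. The other alternatives kept each median's sign. No paired analysis was possible because sections of different parts share no replicate number. Low totals limit the tail: the lead of DjGI014920_001 rests on 351 tail counts.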
